A study of Mus musculus with 4 samples.

Results

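This account concerns the nuclear genes of oxidative phosphorylation (OXPHOS) and where they lay relative to sites bound by the replication timing factor RIF1 in activated mouse B cells. Members were protein-coding gene records of the mm9 annotation (GENCODE M1) on the 19 autosomes whose symbol begins with Ndufa, Ndufb, Ndufc, Ndufs, Ndufv, Sdha to Sdhd, Uqcr, Cox4 to Cox8 or Atp5. This gave 91 records of 21418 autosomal coding genes, with 90 different symbols, since Ndufb8 has a pair of overlapping records. The symbols were checked against their known roles, and 79 records encode structural subunits of the complexes, 6 encode assembly factors, and 6 share a prefix only. The same prefixes also name 3 genes on the X chromosome (Cox7b, Ndufa1 and Ndufb11), which the choice of autosomes leaves out.

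RIF1 occupancy was measured by chromatin immunoprecipitation and sequencing (ChIP-seq). Splenic B cells came from Rif1FH/FH mice, whose RIF1 carries FLAG and HA epitopes at its N terminus (Rif1FH, 2 samples). The negative control was cells of C57BL/6 (Rif1WT/WT) mice with untagged RIF1 (Rif1WT, 2 samples). Per the study, the tagged line was kept on a C57BL/6 background too. All cells were activated with LPS (5 µg/ml) and IL-4 (5 ng/ml) and harvested after 72 h, and the sources used here give neither the age of the mice nor the number pooled. The analysed list holds 16332 intervals kept from both Rif1FH samples, as positions with no height, score or value per sample. Read depth is therefore unknown, Rif1FH was not compared with Rif1WT, and no spread between replicates could be computed. The list holds no expression either, so the labelled cell type was not checked against markers.

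Intervals fell into 16043 narrow ones under 50000 bp, called peaks here, and 289 wide ones. The widest peak was 14827 bp and the narrowest wide interval 90 kb, so no interval lay near the split. Wide intervals are taken to be the RIF1-associated domains (RADs) of the study, which are broad regions of lower enrichment. Peaks were defined by the study outside RADs, and in the list 0 peaks overlapped a wide interval, so a gene wholly inside one cannot have a peak.

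Oxidative phosphorylation is carried out by complexes in the inner mitochondrial membrane. Complexes I and II pass electrons from NADH and succinate to ubiquinone, complex III passes them to cytochrome c, complex IV reduces oxygen, and ATP synthase uses the resulting proton gradient to make ATP. A few hydrophobic subunits are encoded in mitochondrial DNA, while the remainder are encoded by nuclear genes scattered over many chromosomes. These genes are active in nearly all cell types, and many have promoters rich in CpG dinucleotides with sites for the factors NRF1, GABP (also named NRF-2), YY1 and SP1. RIF1 is known for controlling when regions replicate in S phase.

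Most OXPHOS genes either had a RIF1 peak at their 5′ end or lay inside a wide interval. A peak met the window reaching 1 kb to either side of the 5′ end in 45 of 91 members (49.5%, 95% Wilson interval 39.4 to 59.5%), against 32.2% of all autosomal coding genes. A further 32 members (35.2%, 26.1 to 45.4%) lay in a wide interval, against 23.6% of all coding genes. Only 14 members (15.4%) had neither. In all, 77 of 91 members (84.6%) had an interval over the gene or its 5′ window, against 60.9%. The Wilson intervals cover counting error only and take genes as independent, which neighbours in one wide interval are not. No test was made, since the list has no replicate values, and the shares are set beside those of all coding genes as a description.

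**Figure D1:**
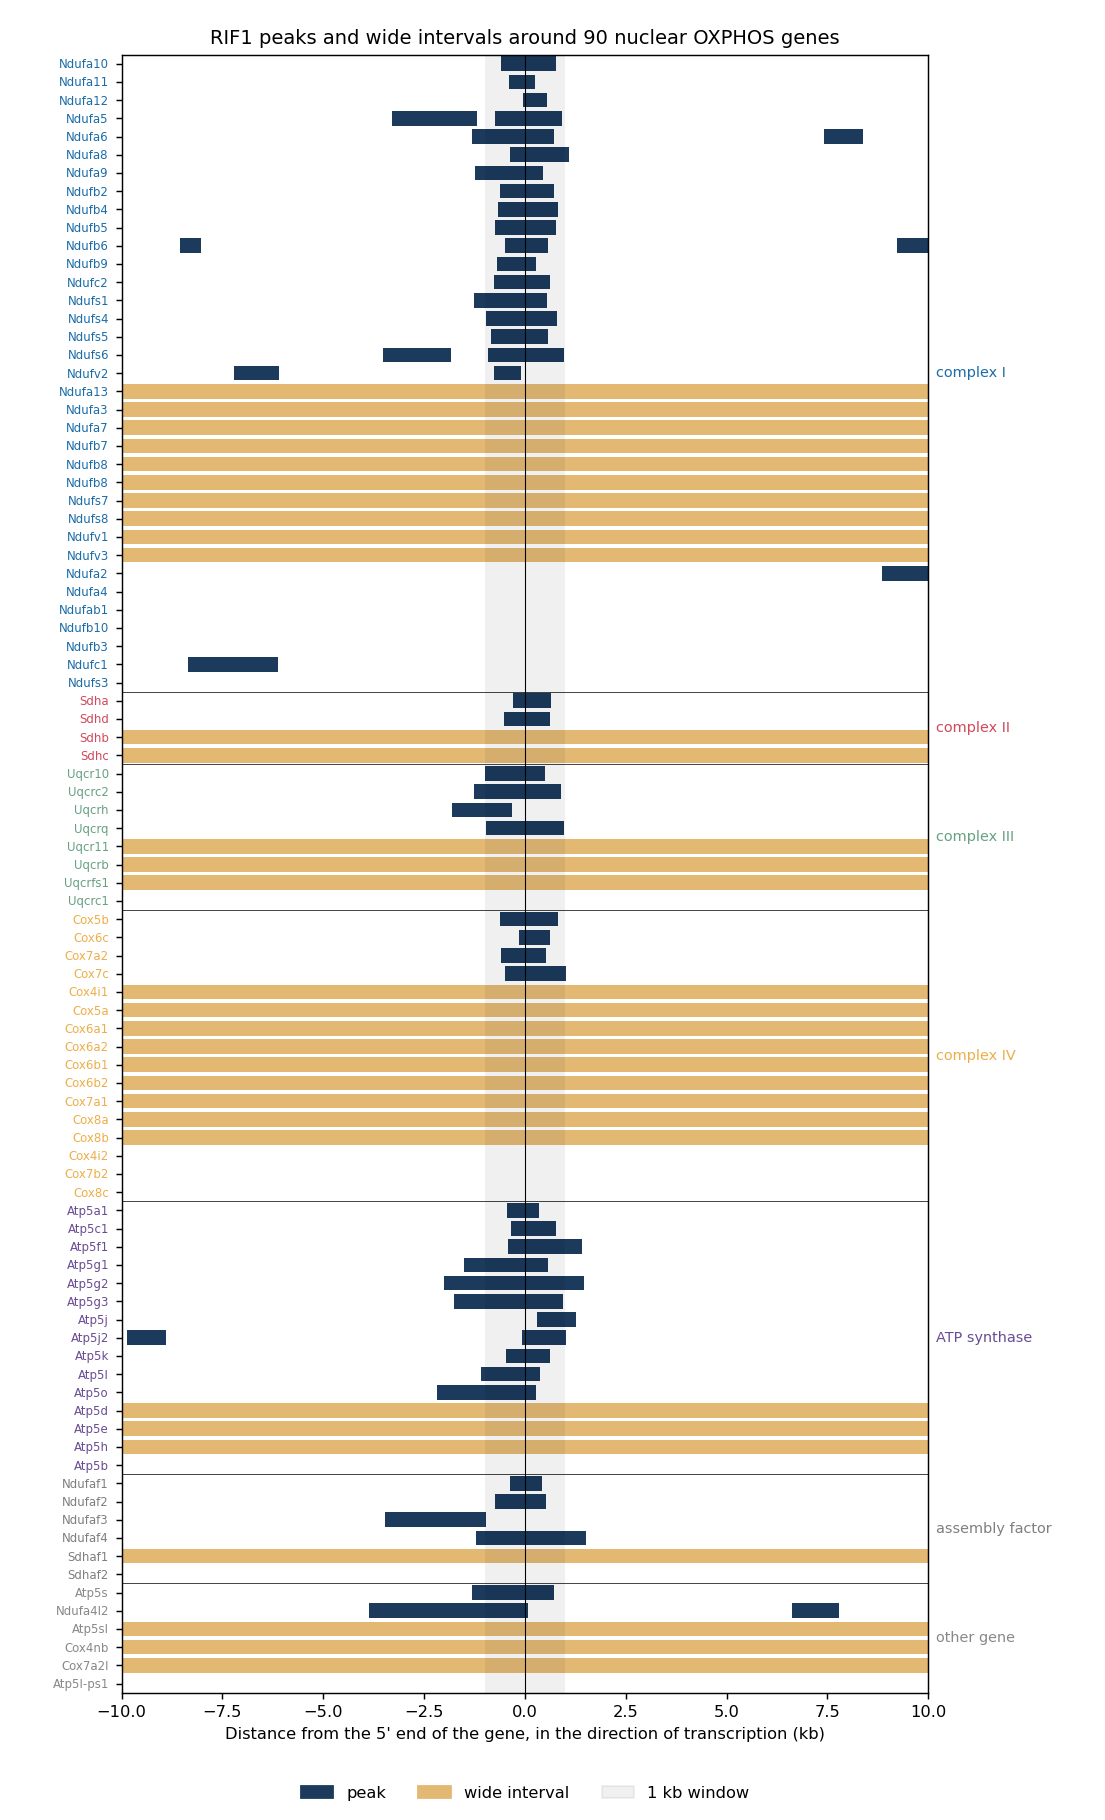
Peaks (dark) and wide intervals (light) within 10 kb of the 5′ end of 90 of the 91 members, 1 row per gene record, grouped by complex. The x axis is the distance from the 5′ end in kb in the direction of transcription, and the grey band is the 1 kb window. In 45 rows a peak meets the band, in 31 a wide interval fills the row, and in 14 neither is present in the band.

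The sequences before the starts of 4 members show the range of these promoters. Each line gives 150 bases of mm9 that end just before the 5′ end, on the strand of the gene, with any match to the SP1 letters GGGCGG, GABP letters CCGGAAG, NRF1 letters GCGCATGCG or YY1 letters AAGATGGC, on either strand, in capitals. Uqcrq has the peak centred closest to its start, Cox7a2 that of complex IV, Cox8a lies in a wide interval and Uqcrc1 has neither. They lie at chr11:53244334-53244483 (minus), chr9:79607661-79607810 (minus), chr19:7292107-7292256 (minus) and chr9:108838511-108838660 (plus).
Uqcrq: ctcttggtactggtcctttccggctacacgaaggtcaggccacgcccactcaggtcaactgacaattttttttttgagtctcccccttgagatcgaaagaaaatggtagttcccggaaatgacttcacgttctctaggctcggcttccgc
Cox7a2: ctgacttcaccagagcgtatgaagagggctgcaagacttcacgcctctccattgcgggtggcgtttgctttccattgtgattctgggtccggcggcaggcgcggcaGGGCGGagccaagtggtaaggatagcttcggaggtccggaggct
Cox8a: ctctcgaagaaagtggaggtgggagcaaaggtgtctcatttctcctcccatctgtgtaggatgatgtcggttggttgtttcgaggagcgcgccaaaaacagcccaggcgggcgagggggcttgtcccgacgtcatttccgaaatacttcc
Uqcrc1: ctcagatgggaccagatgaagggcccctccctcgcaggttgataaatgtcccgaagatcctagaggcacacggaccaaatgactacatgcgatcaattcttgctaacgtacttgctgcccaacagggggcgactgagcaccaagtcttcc

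They hold 8, 11, 10 and 6 CpG dinucleotides. Within these printed bases, only those of Cox7a2 have a match, to the SP1 letters. The promoter window defined further on reaches farther on both sides. In that window Uqcrq has matches to the GABP and SP1 letters, Cox8a to the GABP letters and Uqcrc1 to the NRF1 letters. The printed bases therefore do not show that these promoters lack such letters. For comparison, the 177 bases between the divergent starts of Cox4nb and Cox4i1, inside a wide interval (chr8:123192013-123192189, strand of Cox4i1), hold 27 CpG dinucleotides, with matches to SP1 and GABP in capitals.
Cox4i1: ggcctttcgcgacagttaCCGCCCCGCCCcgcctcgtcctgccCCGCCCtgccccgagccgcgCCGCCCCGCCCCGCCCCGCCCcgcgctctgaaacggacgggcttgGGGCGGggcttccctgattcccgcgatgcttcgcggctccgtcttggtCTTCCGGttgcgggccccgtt

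Complex I accepts electrons from NADH and is the largest of the complexes, with 36 records here. A peak was at the 5′ end in 18 of them (50%), 11 lay in a wide interval (30.6%) and 7 had neither (19.4%). All coding genes had 32.2, 23.6 and 39.1%. Peaks were present at Ndufa5, Ndufa6, Ndufa8, Ndufa9, Ndufa10, Ndufa11, Ndufa12, Ndufb2, Ndufb4, Ndufb5, Ndufb6, Ndufb9, Ndufc2, Ndufs1, Ndufs4, Ndufs5, Ndufs6 and Ndufv2. Wide intervals held, among others, Ndufa3, Ndufa7, Ndufa13, Ndufb7, both records of Ndufb8, Ndufs7, Ndufs8, Ndufv1 and Ndufv3. Neither was found at Ndufa2, Ndufa4, Ndufab1, Ndufb3, Ndufb10, Ndufc1 and Ndufs3. Ndufa4, listed here by its symbol, is now known as a subunit associated with complex IV, and Ndufab1 is also the acyl carrier protein of mitochondrial fatty acid synthesis.

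The widest complex I peak lay at Ndufa6 (chromosome 15, 82184000 to 82186028, 2029 bp wide, with its midpoint at -293 bp, where negative values are upstream of the 5′ end). The peak nearest to its 5′ end was that of Ndufb5 (chromosome 3, 32635166 to 32636684, 1519 bp), whose midpoint was at 13 bp in an exon. The narrowest, of 594 bp, was at Ndufa12. The peak of Ndufv2, a subunit with an iron-sulphur centre, stopped 92 bp short of the 5′ end, and it was the only one of the 18 complex I peaks that did not cover it.

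Complex II, the succinate dehydrogenase shared with the citric acid cycle, has 4 subunits and was split evenly. A peak was at the 5′ end in 2 (50%) and 2 lay in a wide interval (50%), against 32.2 and 23.6% of all coding genes. Sdha, the flavoprotein that oxidises succinate, and Sdhd, a membrane anchor, had peaks of 941 and 1157 bp. The peak of Sdhd (chromosome 9, 50411322 to 50412478) was both the widest and the nearest of the complex, with its midpoint at 54 bp in an exon. Sdhb, the iron-sulphur subunit, and Sdhc, the other anchor, lay in wide intervals.

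Of the 8 complex III genes of the rule, 4 (50%) had a peak, against 32.2% of all coding genes, namely Uqcr10, Uqcrc2, Uqcrh and Uqcrq. The widest was at the core subunit Uqcrc2 (chromosome 7, 127777422 to 127779584, 2163 bp). At Uqcrq, a small subunit of the membrane part, the midpoint of the peak (chromosome 11, 53243361 to 53245297, 1937 bp) lay at 4 bp, the closest of all members. The peak counted for Uqcrh, the hinge protein, lay upstream with its midpoint at -1059 bp and also reached the 5′ end of Lrrc41. Uqcr11, Uqcrb and the Rieske iron-sulphur protein Uqcrfs1 lay in wide intervals, and Uqcrc1 had neither.

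Complex IV, cytochrome c oxidase, showed the lowest share with a peak among the 5 complexes, at 4 of 16 members (25%). It had the highest share in wide intervals, at 9 of 16 (56.2%). All coding genes had 32.2 and 23.6%. Outside wide intervals, 4 of 7 complex IV members (57.1%) had a peak, against 41.8% of all coding genes. Promoters called CpG-rich by the definition given further on made up 43.8% of complex IV, against 64.8% of all members. Peaks were present at Cox5b, Cox6c, Cox7a2 and Cox7c. The widest was at Cox7c (chromosome 13, 86185486 to 86186991, 1506 bp) and the nearest to its 5′ end at Cox7a2 (chromosome 9, 79607139 to 79608255, 1117 bp, midpoint at -37 bp). Wide intervals held Cox4i1, Cox5a, Cox6a1, Cox6a2, Cox6b1, Cox6b2, Cox7a1, Cox8a and Cox8b, while Cox4i2, Cox7b2 and Cox8c had neither. With so few genes per complex, the order of the complexes was not tested.

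ATP synthase had the highest share of the 5 complexes, with a peak at 11 of 15 members (73.3%), against 32.2% of all coding genes. Another 3 lay in a wide interval and 1 had neither. Outside wide intervals the share was 11 of 12 (91.7%), against 41.8% of all coding genes, and complex II had 2 of 2 there. Peaks lay at Atp5a1, Atp5c1, Atp5f1, Atp5g1, Atp5g2, Atp5g3, Atp5j, Atp5j2, Atp5k, Atp5l and Atp5o. Atp5d and Atp5e, small subunits of the catalytic head, and Atp5h, of the peripheral stalk, were in wide intervals. Atp5b, the catalytic beta subunit, had neither, and its nearest peak was 23594 bp from the 5′ end.

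The genes Atp5g1, Atp5g2 and Atp5g3 each encode subunit c, which forms the membrane ring that protons turn. All 3 had a peak, of 2082, 3478 and 2700 bp, each wider than the median of 1446 bp over members with a peak. The peak of Atp5g2 (chromosome 15, 102500018 to 102503495) was the widest of the complex. The best-centred peak was that of Atp5a1, the alpha subunit of the catalytic head (chromosome 18, 78012016 to 78012829, 814 bp, at -45.5 bp).

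Atp5o, the oligomycin sensitivity subunit of the stalk, was the only member with 2 or more peaks over its gene. It had 7, but its annotated record spans 247290 bp (chromosome 16, 91684643 to 91931932), far beyond the other ATP synthase records. Only 1 of these peaks was at its 5′ end (91931653 to 91934101, 2449 bp, midpoint at -945 bp). The other 6 had their midpoints in introns of the record, from 61781 to 202929 bp downstream, and 1 of these also reached the 5′ ends of Cryzl1 and Itsn1. They cannot be read as binding to Atp5o alone.

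Among the assembly factors, which help to build complexes without being part of them, 4 of 6 (66.7%) had a peak, namely Ndufaf1, Ndufaf2, Ndufaf3 and Ndufaf4. All coding genes had 32.2%. All 6 promoters were CpG-rich by the definition given further on, and 54.1% of all CpG-rich coding genes had a peak. Sdhaf1 lay in a wide interval and Sdhaf2 had neither. The widest peak was at Ndufaf4 (chromosome 4, 24824015 to 24826745, 2731 bp) and the nearest at Ndufaf1 (chromosome 2, 119488135 to 119488934, 800 bp, midpoint at 28.5 bp). The peak counted for Ndufaf3 began 960 bp upstream, at the edge of the window, and also reached the 5′ end of Dalrd3.

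The remaining 6 members share a prefix but are no subunits of the complex it names. A peak was at the 5′ end in 2 of them (33.3%), against 32.2% of all coding genes. Atp5s (chromosome 12, 70824629 to 70826670, 2042 bp) and Ndufa4l2, a paralogue of Ndufa4 known to be induced by low oxygen, had a peak. That of Ndufa4l2 was the widest of all members (chromosome 10, 126948127 to 126952082, 3956 bp), but its midpoint lay at -1890.5 bp, so most of it lay upstream of the gene. Atp5sl, Cox7a2l, which acts in joining complexes III and IV, and Cox4nb, a membrane insertion factor of the endoplasmic reticulum, lay in wide intervals. Atp5l-ps1, a pseudogene by its symbol, had neither.

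**Figure D2:**
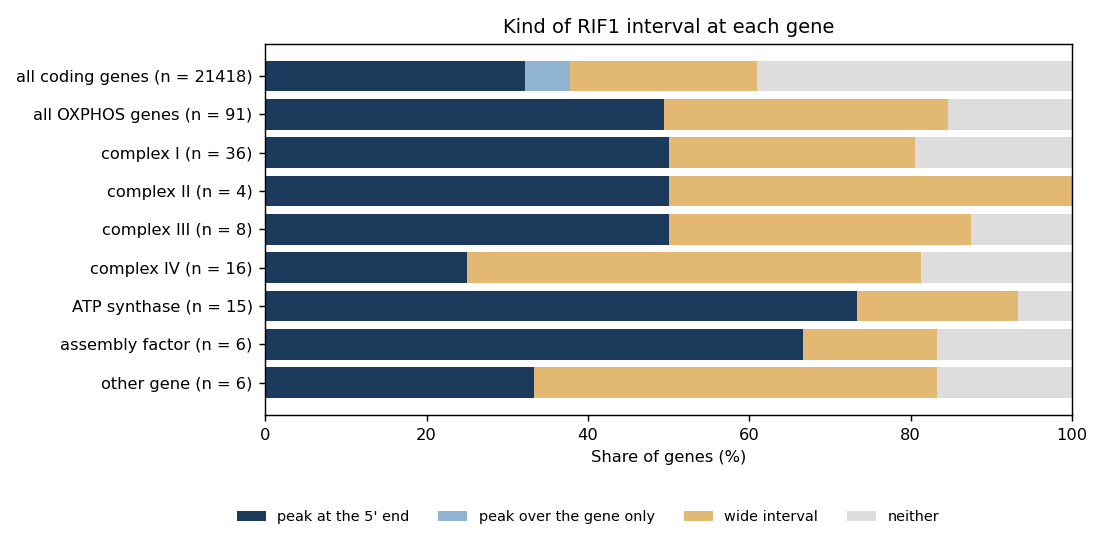
Share of genes (x axis, %) with a peak at the 5′ end, with a peak over the gene only, in a wide interval, or with neither, for all autosomal coding genes, all members and each group of members (n in brackets). Dark bars end at 32.2% for all coding genes, 49.5% for all members, 25% for complex IV and 73.3% for ATP synthase, and members have no gene with a peak over the gene body only.

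Peaks that overlapped a member gene lay at its 5′ end, apart from 6 along Atp5o. A peak overlapped the gene in 42 of 91 members (46.2%), against 36.2% of all coding genes, and each of these 42 also had a peak at its 5′ end. Over all coding genes, 1184 had a peak over the gene but none at the 5′ end, and no member was among them. Longer genes meet more peaks, and members are short, with a median length of 7512 bp against 15535 bp for all coding genes. The count of members stayed at 45 when the window was widened from 1 to 2 and 5 kb, while the share of all coding genes grew from 32.2 to 33 and 35.2%.

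Of the 45 peaks, 41 covered the 5′ end itself, or 91.1% against 86.8% of all coding genes with a peak. The 45 members had 45 different peaks, so none was shared between members. Midpoints lay within 500 bp of the 5′ end in 40 of 45 members (88.9%), against 73.8% of all coding genes with a peak. The median midpoint was at -37 bp in members, with quartiles at -293 and 87.5 bp, and at 40 bp in all coding genes with a peak, with quartiles at -236.5 and 316 bp. Upstream and downstream midpoints were about even in members, at 23 and 22. The midpoints farthest from it, at Ndufa4l2, Ndufaf3, Uqcrh and Atp5o, were all upstream.

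Peaks of members ran from 594 to 3956 bp with a median of 1446 bp (quartiles 1094 and 1839 bp), against a median of 1602 bp (quartiles 1140 and 2188 bp) over all coding genes with a peak at the 5′ end. In complex I the median was 1442 bp and in ATP synthase 1446 bp. Width is the only measure that the list gives for a peak, and it does not stand for the strength of binding.

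**Figure D3:**
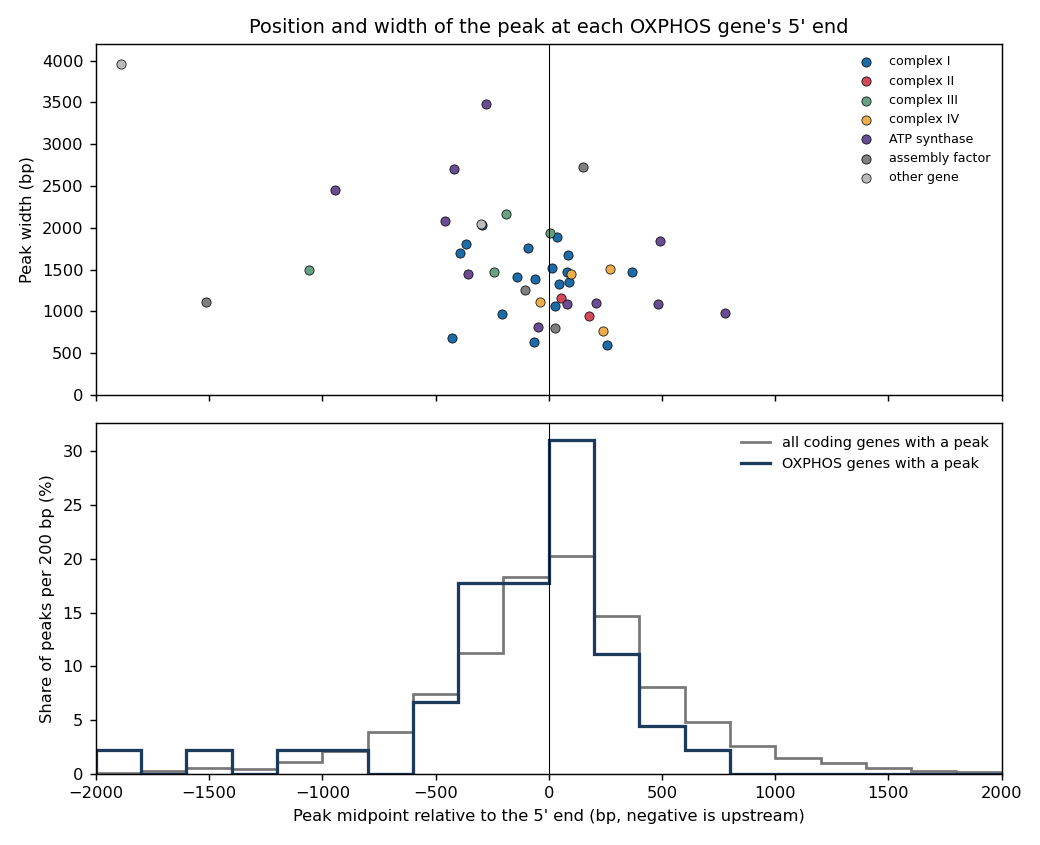
Top, width of the peak (bp) against the position of its midpoint relative to the 5′ end (bp, negative is upstream) for the 45 members with a peak, coloured by group. Bottom, share of peaks per 200 bp of position for these members and for all 6896 coding genes with a peak at the 5′ end, where 40 of 45 member midpoints lie within 500 bp of the start.

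The 32 members in wide intervals lay in 23 different intervals, and each gene was wholly inside. These intervals had a median width of 940 kb (320 to 4842 kb), against 580 kb over all 285 autosomal wide intervals. A wider interval has more room to hold a member. Their distance to the nearest peak ran from 60574 bp at Ndufs8 upwards, with a median of 369 kb, against 447 kb over all coding genes in wide intervals, where peaks are left out by definition.

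Of the 7 intervals with several members, 6 are given here. On chromosome 10 (78740001 to 81220000, 2480 kb) Atp5d, Ndufs7 and Uqcr11 lay among 133 coding genes. On chromosome 7 (30540001 to 32022000, 1482 kb) Cox6b1, Cox7a1 and Sdhaf1 lay among 78. Ndufa7 and Ndufv3 shared an interval on chromosome 17 (31626001 to 36468000), and Ndufs8 and Ndufv1 one on chromosome 19 (3900001 to 4340000). Cox4i1 and its divergent neighbour Cox4nb lay on chromosome 8 (122562001 to 123440000), and both records of Ndufb8 on chromosome 19 (44320001 to 44640000). The interval on chromosome 10 thus held members of 3 complexes.

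By chromosome, each holding few members, counts are given beside the share of all its coding genes, and the differences were not tested. On chromosome 7, 8 of 12 members lay in wide intervals and 2 had a peak, against 37.2 and 18.1% of its coding genes. All 4 members on chromosome 8 lay in wide intervals, against 21.5%, and 5 of 6 on chromosome 19, against 28.3%. These are not independent, since Cox4i1 and Cox4nb share an interval on chromosome 8. On chromosome 19 both records of Ndufb8 share an interval, and Ndufs8 and Ndufv1 share another. All 4 members on chromosome 15 had a peak, against 29.5%, as had all 3 on chromosome 16, against 42.4%. Chromosome 14 has no member.

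In the 14 members with neither, the distance from the 5′ end to the nearest peak ran from 6130 bp at Ndufc1 to 618970 bp at Cox7b2, with a median of 21606 bp, against a median of 79.8 kb over all 8370 coding genes with neither. Next to Ndufc1 came Ndufa2 (8849 bp), Ndufb10 (11762 bp), Ndufs3 (12101 bp), Cox4i2 (16594 bp), Ndufa4 (17875 bp) and Cox8c (19618 bp). Beyond Cox7b2 (chromosome 5, 71834063 to 71939444), the farthest were Ndufb3 (64504 bp), Atp5l-ps1 (55479 bp), Uqcrc1 (54644 bp) and Sdhaf2 (54488 bp). In a list without depth, these are genes without a listed interval, and weaker binding could not be seen.

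Since a peak cannot be listed in a wide interval, shares were also taken outside them. There, 45 of 59 members (76.3%) had a peak at the 5′ end, against 41.8% of all coding genes outside wide intervals. Allowing 20 kb from the 5′ end, 88.1% of these members and 56.1% of these coding genes had a peak. At each of the 8 distances computed, from 0.1 to 50 kb, the share was higher in members.

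**Figure D4:**
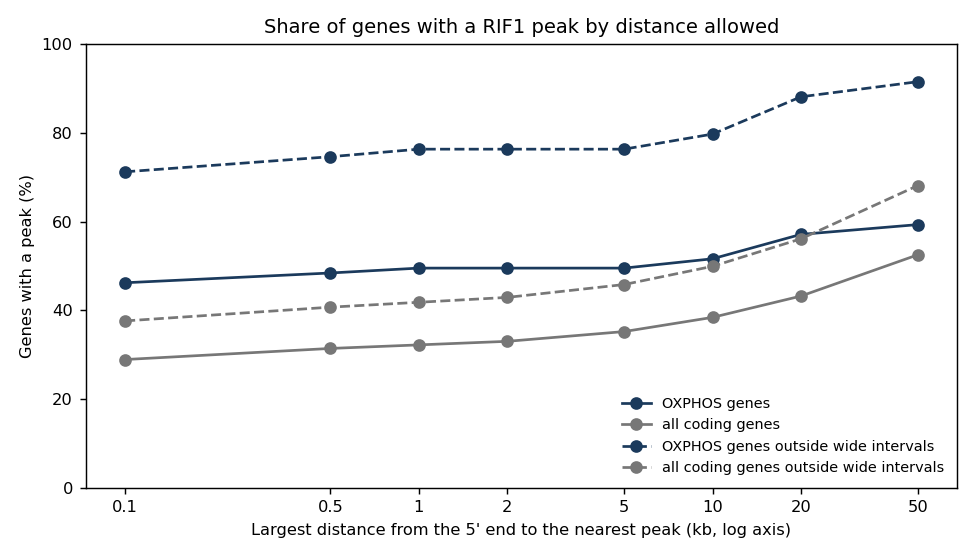
Share of genes (%) whose 5′ end lies within a given distance (kb, log axis) of a peak, for members and for all autosomal coding genes, over all of them (solid) and outside wide intervals (dashed). Members stay level at 49.5% from 1 to 5 kb, while all coding genes go from 32.2 to 35.2%.

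The background was also split by promoter sequence, since CpG-rich promoters are typical of genes used in most cell types. A promoter was taken from 250 bases before to 50 after the 5′ end and called CpG-rich at a GC content of 50% or more and a CpG ratio (observed over expected) of 0.6 or more. Of the members 59 of 91 (64.8%) were CpG-rich, against 42.8% of all coding genes. Among CpG-rich promoters 30 of 59 members (50.8%) had a peak, which was close to the 54.1% of all CpG-rich coding genes. Outside wide intervals the shares were 30 of 39 (76.9%) and 71.5%. At CpG-rich promoters the share of members was thus near the background.

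The shares lay apart at the other promoters. There, 15 of 32 members (46.9%) had a peak, against 15.8% of all such coding genes, and outside wide intervals 15 of 20 (75%) against 20.3%. Some of these promoters count as other only at the listed 5′ end. With any annotated transcript start allowed, 72 members were CpG-rich and 38 of them (52.8%) had a peak, against 51.3% of the corresponding coding genes. The 72 members, 38 with a peak, are part of the 91 members, of which 45 had a peak. The corresponding coding genes, 5732 of 11173 with a peak, are part of 6896 of 21418. At the promoters left over, not CpG-rich at any start, the share with a peak was thus still larger in members. That difference was not tested. Expression was not measured in the list, and its part in these shares was not tested.

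**Figure D5:**
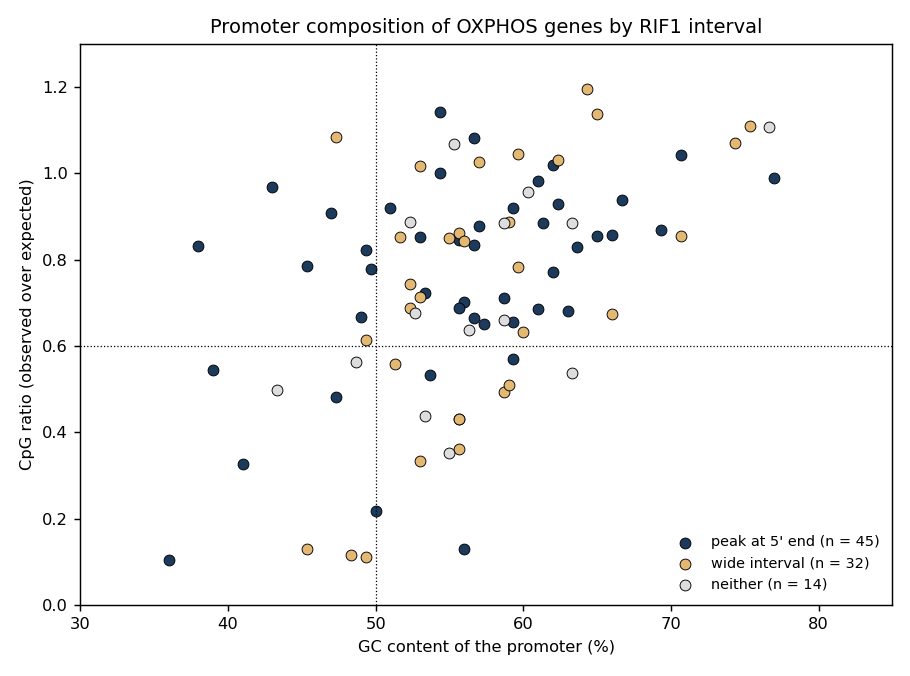
CpG ratio (observed over expected) against GC content (%) of the promoter window of each of the 91 members, coloured by the kind of RIF1 interval. Dotted lines mark 50% GC and a ratio of 0.6, and genes with a peak, in a wide interval and with neither lie on both sides of them.

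OXPHOS genes often share a promoter region with another gene. The 5′ end of 30 of 91 members (33%) lay within 1 kb of a coding gene's 5′ end on the opposite strand, against 11.1% of all coding genes. Among these, 16 of 30 (53.3%) had a peak, close to the 55.7% of all such coding genes. Among members without such a partner, 29 of 61 (47.5%) had a peak, against 29.3%. A peak at a shared promoter belongs to both genes, and 17 of the 45 peaks reached within 1 kb of another coding 5′ end. Partners include Gabpa, which encodes the alpha subunit of GABP, opposite Atp5j, as well as Timm8b opposite Sdhd and Mrpl47 opposite Ndufb5. For members with no other gene's transcript start within 1 kb, the share with a peak was 26 of 55 (47.3%), against 28.3% of such coding genes.

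Motifs of factors known for these genes were searched on both strands of the promoter window. The letters were GCGCATGCG for NRF1 and its looser form GCGCANGCG, which includes the first, CCGGAAG for GABP, AAGATGGC for YY1, GGGCGG for SP1, CACGTG for the E-box and TATAAA for the TATA box. Matches are descriptions of the sequence and not binding sites. The NRF1 letters were in 8 of 91 members (8.79%), against 2.13% of all coding and 4.28% of CpG-rich promoters. The YY1 letters were in 11 members (12.1%), against 3.31 and 4.81%.

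The other motifs had shares near those of CpG-rich promoters or below them, apart from the TATA box. The GABP letters were in 19 members (20.9%), against 10.9% of all coding and 19.8% of CpG-rich promoters, and the looser NRF1 letters in 17 (18.7%), against 8.16 and 17.2%. SP1 letters were in 43 (47.3%), against 43.7 and 76.3%. The E-box was in 9 (9.89%), against 7.78 and 11.7%, and the TATA box in 9 (9.89%), against 13.5 and 4.69%.

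By kind of interval, the NRF1 letters were in 5 of 45 members with a peak (11.1%), 2 of 32 in a wide interval and 1 of 14 with neither. Over all coding genes with a peak at the 5′ end the share was 3.55%. The 8 matches are shown with 10 bases on each side, read on the strand of the motif and with the motif in capitals, since NRF1 takes its name, nuclear respiratory factor, from genes of this kind. Those with a peak were Atp5g2, Atp5k, Atp5l, Ndufa11 and Ndufaf4, those in a wide interval were Cox6a1 and Uqcr11, and Uqcrc1 had neither.
Atp5g2 (chr15:102501502-102501530, minus): ggctccggccGCGCATGCGcagagccttc
Atp5k (chr5:108863450-108863478, minus): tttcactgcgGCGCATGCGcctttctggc
Atp5l (chr9:44729048-44729076, plus): tgggggaaatGCGCATGCGttattggttt
Cox6a1 (chr5:115799111-115799139, minus): caggaacgggGCGCATGCGcgctctcgct
Ndufa11 (chr17:56857115-56857143, plus): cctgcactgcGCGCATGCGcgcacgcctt
Ndufaf4 (chr4:24825107-24825135, plus): ccagatgtctGCGCATGCGcctgtgcgga
Uqcr11 (chr10:79869553-79869581, plus): cagacgtataGCGCATGCGtgaaggcgat
Uqcrc1 (chr9:108838681-108838709, plus): actccgctctGCGCATGCGcagcgcggct

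The first base of the motif in the direction of the gene lay from -241 bp (Atp5l) to 30 bp (Uqcrc1) relative to the 5′ end. Of all coding genes with the NRF1 letters, 53.7% had a peak, against 31.7% of those without, but most of the former are CpG-rich. Among CpG-rich coding genes the shares were 55.2% with and 54% without the letters. For the looser letters the counts were 12 of 45 (26.7%), 4 of 32 and 1 of 14, and over all coding genes with a peak the share was 14.5%. Of CpG-rich coding genes with the looser letters 58.6% had a peak, against 53.1% without. The small numbers were not tested.

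The YY1 letters were in 3 of 45 members with a peak (6.67%), 7 of 32 in a wide interval and 1 of 14 with neither. Over all coding genes with a peak the share was 4.06%, and over those in wide intervals it was not computed. These small numbers were not tested. Of all coding genes with the YY1 letters 39.4% had a peak, against 31.9% of those without, and among CpG-rich ones 51.2 against 54.2%. The GABP letters were in 8 of 45 (17.8%), 10 of 32 and 1 of 14 members, and in 18.7% of all coding genes with a peak. Over all coding genes a peak was more frequent with the GABP letters (55.1%) than without (29.4%), as it was among CpG-rich ones (59.8 against 52.6%). Of the 7 matches to the YY1 letters in wide intervals, 6 are shown in the same way.
Atp5d (chr10:79601394-79601421, plus): gtgggggaggAAGATGGCtggagaccca
Atp5h (chr11:115281469-115281496, plus): gcggcggcccAAGATGGCggagctgcag
Atp5sl (chr7:26404449-26404476, plus): gttacctggcAAGATGGCggcgcccaga
Ndufa3 (chr7:3568987-3569014, plus): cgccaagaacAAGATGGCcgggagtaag
Ndufb8 (chr19:44629877-44629904, minus): ggagaaggtgAAGATGGCtgccgcccgg
Sdhc (chr1:173080695-173080722, minus): gccggaactcAAGATGGCtgcgttcttg

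By the first base in the direction of the gene, 5 of these 6 lay from 22 to 36 bp downstream of the 5′ end. That of Atp5h lay at -210 bp. The letters contain ATG, and whether they overlap a start codon was not examined. Sequences come from the mm9 genome.

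Several subunits exist as a common form and a form of particular tissues. Among complex IV genes with such forms, the common ones Cox4i1, Cox6a1, Cox6b1 and Cox8a were in wide intervals and Cox7a2 had a peak. The forms known from heart and skeletal muscle, Cox6a2, Cox7a1 and Cox8b, were in wide intervals too, as was the testis form Cox6b2. Cox4i2, known from lung, and the testis forms Cox7b2 and Cox8c had neither. Thus 0 of these 7 tissue forms had a peak, but 4 lay where none can be listed and 0 had a CpG-rich promoter. For the remaining 3 the background is the 20.3% of other promoters outside wide intervals. For Ndufa4 and Ndufa4l2 the order was the other way, as the common form had neither and its paralogue had a peak centred upstream.

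Of 49 listed genes of the same pathway outside these prefixes, 44 had an autosomal coding record under the listed symbol, and 27 (61.4%, against 32.2% of all coding genes) had a peak at the 5′ end, 2 a peak over the gene only, 7 a wide interval and 8 neither. CpG-rich promoters made up 70.5% of the 44, and 20 of these 31 (64.5%) had a peak, against 54.1% of all CpG-rich coding genes. Among electron carriers and other subunits, 5 of 8 (62.5%) had a peak, against 32.2% of all coding genes. They included Cycs, which encodes cytochrome c, and Atpif1, the inhibitor of ATP synthase. Etfa and Etfdh, which bring electrons from fatty acid oxidation, were also among them. Cyc1, the cytochrome subunit of complex III, lay in a wide interval. Of assembly factors, 14 of 23 (60.9%, against the same 32.2%) had a peak, among them Cox10, Cox11, Cox17, Sco1, Atpaf1 and Tmem70. Surf1 had neither.

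Of 13 regulators, 8 (61.5%) had a peak, against 32.2% of all coding genes, among them Nrf1, Gabpa, Tfam, Tfb1m, Tfb2m and Polg. The peak of Gabpa is the same one that was counted for the member Atp5j. CpG-rich promoters were present at 9 of the 13, and 6 of these 9 (66.7%) had a peak, against 54.1% of all CpG-rich coding genes. Tfam and Polg serve the transcription and replication of mitochondrial DNA. Ppargc1b, a coactivator of these genes, had a peak of 3370 bp at its start, while its relative Ppargc1a had a peak over the gene but 12336 bp from the 5′ end. Esrra and the mitochondrial RNA polymerase Polrmt lay in wide intervals, and Yy1 had neither.

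Other families of genes that every cell uses are given side by side, with no test of a difference. Of 41 proteasome subunit genes, 22 (53.7%) had a peak at the 5′ end and 12 (29.3%) lay in a wide interval. Of 142 coding records whose symbol begins like those of cytosolic ribosomal proteins, 43 (30.3%) had a peak and 43 (30.3%) lay in a wide interval. This list holds kinases and pseudogene records, and without them 41 of 81 (50.6%) had a peak, 29 (35.8%) lay in a wide interval and 11 (13.6%) had neither. Members had 49.5, 35.2 and 15.4%, so the proteasome genes and the trimmed ribosomal list gave shares of similar size.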

How the data were processed

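ChIP-seq for RIF1 was performed with an anti-HA antibody on 2 Rif1FH and 2 Rif1WT samples. The antibody label names CD43 beads, which serve to isolate B cells, and the extraction protocol was followed here. Per the labels and the study's methods, the authors trimmed reads with Trim Galore 0.6.4, aligned them to mm9 with Bowtie 1.0.0 keeping unique alignments, called narrow and broad peaks with MACS2 2.2.6 and domains with EDD, merged them with bedtools 2.27.1, and kept what both Rif1FH replicates had. Reads from repeated sequence are therefore not represented, and peak thresholds are not given in the sources used here. The deposited list holds chromosome, start and end only.

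Coordinates are on mm9, counted from 1, and the NCBIM37 reference has the same build. A gene's 5′ end is that of its GENCODE M1 record. Intervals were assigned by an overlap of at least 1 bp with the gene or the 1 kb window, peaks (under 50000 bp) and wide intervals apart. Overlaps and motif matches were tested on simulated data. Members, gene lists and alternatives were chosen with earlier results of these data known, and the sets of tissue forms, core subunits and trimmed ribosomal genes after values were seen. All members but 1, which is not reported here, are named. Positions are given for the widest and best-centred peak of each group, members with several peaks, wide intervals with several members and the members farthest from an interval. Computation used Python 3.11.15, pandas 2.3.3, scipy 1.17.1, pysam 0.24.0 and samtools 1.23.1.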

Additional observations from a re-analysis of the deposited data

How the results depend on the processing

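The share of members with a peak at the 5′ end was 49.5% and stayed within its 95% Wilson interval under 8 of 11 other window, peak and gene choices. It was 28.6% with peaks at or above the median width of 1365 bp (20.7% of all coding genes), 84.6% with the whole list (55.3%) and 76.3% outside wide intervals, each by construction of the set. Of 3 further choices made after the data were seen, that of CpG-rich promoters outside wide intervals moved it, to 76.9%. The share with a peak over the gene, 46.2% (36.2% of all coding genes), was 25.3% where the midpoint had to lie in the gene. It was 27.5% with the wider peaks, and did not move for structural subunits. The shares of all coding genes under the midpoint and wider-peak choices were not computed, so the 25.3 and 27.5% have no background beside them. The share in wide intervals, the median midpoint and the median width stayed within their intervals under the other choices run. No paired analysis was possible because intervals carry no measurement of any single sample, which also kept each replicate from being left out in turn. Depth is unknown, so a gene without an interval is only one without a listed interval.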

Other observations

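The subunits of the catalytic head of ATP synthase, which share a place in their complex, were looked at after the values were seen, and are given as a description only. Of these 5 subunits, Atp5a1 and Atp5c1 had a peak, Atp5d and Atp5e lay in wide intervals, and Atp5b had neither. These 5 genes thus fell into all 3 kinds, as did members as a whole, at 49.5, 35.2 and 15.4%.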
